A study of Mus musculus with 8 samples.

Results

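The response of accessible chromatin to a dominant-negative form of Chd4 was set against the response to a dominant-negative form of Snf2h, site by site, in a mouse mammary epithelial cell line. Hotspots (stretches of the genome dense in DNase I cuts) were merged across the 4 lists of the DNCHD4 and DNSnf2h lines wherever 1 bp or more overlapped, and sites listed in all 4 libraries were kept. They numbered 15878 of the 97890 merged sites, or 16.2%, and the 8 lists of the whole series merged into 99999 sites. At each site the peak tag density without tetracycline was divided by that with tetracycline, within each line, and the log2 ratio was centred by setting the median over the 15878 sites to 0. The difference of changes was the centred log2 ratio of DNCHD4 minus that of DNSnf2h. A positive difference therefore means that a site was higher, relative to its own tetracycline control, in DNCHD4 than in DNSnf2h.

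DNase-seq was done on nuclei of 3134 cells, and the libraries were made from DNase I fragments of 100 to 500 bp. The DNCHD4 line holds a mouse Chd4 coding sequence with a triple FLAG tag and cysteine in place of lysine 250. The DNSnf2h line holds a human SNF2H coding sequence with a FLAG tag and arginine in place of lysine 211. Both sequences sit in the tetracycline-regulated retroviral vector pRevTRELink and were integrated into 3134Tet cells, which carry the tetracycline transactivator. The lines were kept in tetracycline, which represses the transgene, and were then grown in medium with charcoal-dextran treated serum without or with tetracycline for 48 hours. Cells labelled as plain 3134, called parental here, and a DNBrg1 line were also measured without and with tetracycline. The labels do not say whether a line is 1 clone or how the DNBrg1 construct was made. Each of these 8 groups has 1 library, so differences between groups stand without replicates and without p-values. The lists hold no measure of the dominant-negative proteins, so their induction was not checked here.

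Chd4 is the ATPase of the NuRD complex, which couples nucleosome remodeling to histone deacetylation and acts at enhancers and promoters. Snf2h is the ATPase of the mammalian ISWI complexes, which slide nucleosomes and set their spacing. A DNase I hypersensitive site is a stretch where nucleosomes are displaced or often moved, typically a promoter, an enhancer or another site bound by transcription factors, so both enzymes can in principle widen or narrow access to the same site.

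The DNCHD4 libraries were the deeper pair at these sites. The median site had a peak density worth 356 tags without and 422 tags with tetracycline in DNCHD4, and 93.0 and 106 tags in DNSnf2h. The lists began at densities of 5.09 and 8.05 in DNCHD4 without and with tetracycline and of 8.06 and 8.03 in DNSnf2h. Members lay well above the start of the DNCHD4 lists, with median densities of 69.7 and 75.5, and closer to the start of the DNSnf2h lists, with medians of 18.7 and 19.8. Before centring, the median log2 ratio was -0.09 in DNCHD4 and -0.02 in DNSnf2h, so centring moved the sites by less than 0.1. Of the members, 97.4% were also listed in parental cells with tetracycline, a library that enters neither ratio. A large part of the merged sites could not be members. DNCHD4 cells without tetracycline alone listed 35120 of them, both DNCHD4 libraries but no DNSnf2h library listed 16634, and 4561 and 3775 lacked a hotspot only in DNSnf2h without and with tetracycline.

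The responses of both lines mostly ran the same way. Sites at least 1.5-fold higher without tetracycline numbered 1707 in DNCHD4, or 10.8% of members, and 2120 in DNSnf2h, or 13.4%. Sites at least 1.5-fold lower numbered 3289 in DNCHD4, or 20.7%, and 2797 in DNSnf2h, or 17.6%. Of the sites lower in DNCHD4, 49.4% were also lower in DNSnf2h and 1.46% were higher there. Of those higher in DNCHD4, 33.1% were also higher in DNSnf2h and 2.52% were lower. A lower density in bulk nuclei can come from fewer cells with the site open or from less cutting per cell, and these cannot be told apart.

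In counts, 565 sites were higher and 1625 lower in both lines, 2190 concordant sites in all or 13.8% of members. Discordant sites, changed at least 1.5-fold in opposite directions, numbered 91, or 0.573% (95% Wilson interval 0.467% to 0.703%). That interval treats sites as independent draws and holds no tag counting error. Of the 91 discordant sites, 43 were higher in DNCHD4 and lower in DNSnf2h, and 48 were lower in DNCHD4 and higher in DNSnf2h. A further 1099 sites were higher and 1616 lower in DNCHD4 without passing 1.5-fold in DNSnf2h, and 1507 were higher and 1129 lower in DNSnf2h without passing it in DNCHD4. The other 8246 sites, or 51.9%, passed it in neither line. The sign of the centred change was the same in both lines at 11290 sites, or 71.1%. Among the 6267 sites whose counting interval lay off 0 in both lines, it was the same at 5580, or 89.0%. Across the 15878 sites the 2 changes had a Spearman correlation of 0.57 and a Pearson correlation of 0.59. The sites share libraries and are not independent, so the correlation is a description.

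**Figure D1:**
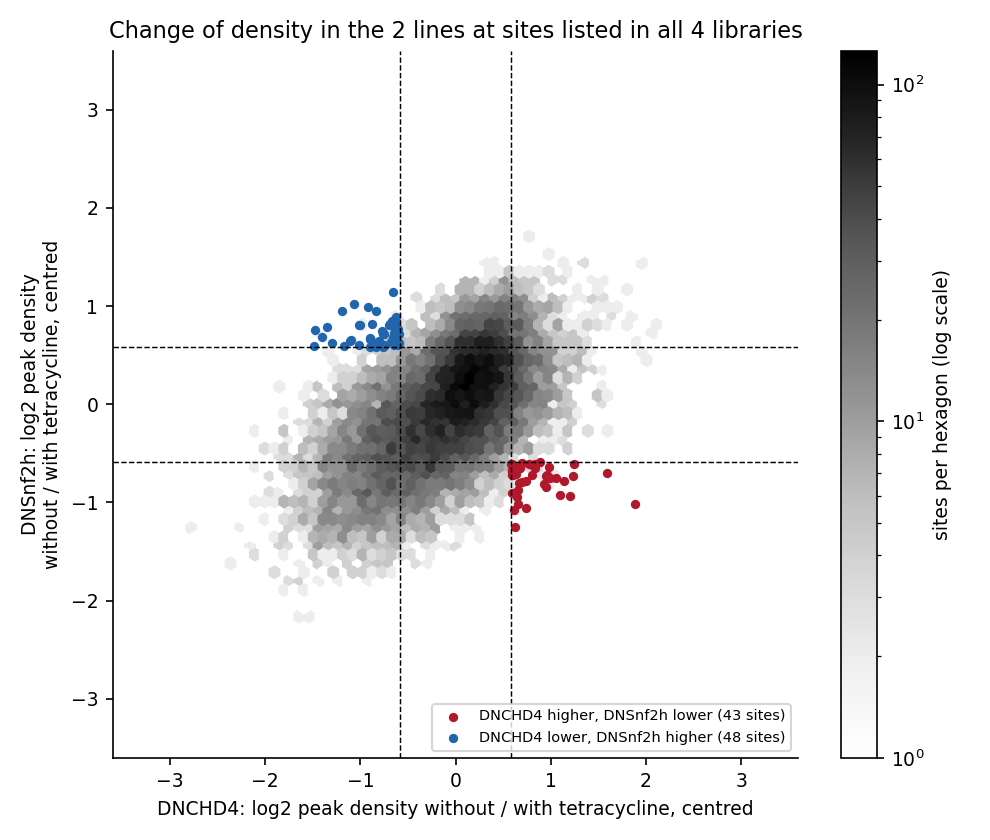
Each hexagon counts sites by the centred log2 ratio without over with tetracycline in DNCHD4 (horizontal) and DNSnf2h (vertical), on a log grey scale, and dashed lines mark 1.5-fold. The cloud runs from lower left to upper right, and the 43 red and 48 blue discordant sites lie at its edge close to the 1.5-fold lines.

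The discordant counts depended on the measure and on the fold more than the concordant ones. At a 2-fold rule 86 and 465 sites stayed concordant higher and lower, and 1 site of each discordant kind was left. With the mean in place of the peak density of a hotspot the discordant counts were 91 and 89, and without centring they were 27 and 53.

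The difference of changes itself had a median of -0.05 and an SD across sites of 0.55 on the log2 scale, with quartiles at -0.39 and 0.31. Counting error accounted for 19.7% of its variance over sites. It was at least 2-fold higher (a log2 difference of 1 or more) at 502 sites, or 3.16%, and at least 2-fold lower at 671 sites, or 4.23%. Without centring these counts were 387 and 855. Most of the sites past 2-fold had passed 1.5-fold in 1 line only. Of the 502, 220 were higher in DNCHD4 alone, 202 were lower in DNSnf2h alone and 43 were discordant. Of the 671, 406 were lower in DNCHD4 alone, 150 were higher in DNSnf2h alone and 48 were discordant. A concordant site could pass it too, since both lines can change the same way by different amounts. That was so for 24 sites with a higher and 49 with a lower difference.

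The 5 sites of each discordant kind named here were ranked by the size of the difference less its counting error, so their values are a description of the most extreme sites. They are called H1 to H5 where DNCHD4 was higher and L1 to L5 where it was lower. Coordinates are on build mm9. No gene names are given because the annotation at hand is on another build, and brackets hold the 95% counting interval. Parental and DNBrg1 ratios were centred as well, on medians that stood at -0.38 and -0.62 on the log2 scale before centring, so their changes are relative to those medians.

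Site H1 at chr2:181666407-181667518 had a peak density of 28.4 without and 8.23 with tetracycline in DNCHD4 cells, and of 10.9 without and 22.2 with tetracycline in DNSnf2h cells. The densities of both lines cross over, and the difference of 2.89 [2.23 to 3.56] is the highest of all 15878 sites. H1 was listed in neither parental library, so it has no parental ratio. Site H2 at chr13:63346772-63347657 had 65.2 and 23.1 in DNCHD4 and 9.67 and 15.9 in DNSnf2h, a difference of 2.29 [1.70 to 2.88]. The parental cells, with 31.1 without and 14.9 with tetracycline, moved in the DNCHD4 direction there. Site H3 at chr16:35905192-35906019 had 84.4 and 39.0 in DNCHD4 and 11.1 and 21.5 in DNSnf2h, a difference of 2.14 [1.62 to 2.66]. Parental densities there were 50.7 and 40.6, a centred log2 ratio of 0.70. Site H4 at chr5:143020740-143021853 had 50.5 and 22.9 in DNCHD4 and 10.9 and 18.3 in DNSnf2h, a difference of 1.97. Its parental densities of 18.0 and 27.0 gave a centred ratio of -0.21, the sign of the DNSnf2h change. Site H5 at chr6:72964336-72965428 was the strongest of the 5 in DNCHD4, with 199 and 110 there. DNSnf2h cells had 17.3 and 31.6, and parental cells 105 and 86.5. Its difference was 1.79 [1.39 to 2.19].

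In the opposite direction, site L1 at chr17:48524892-48525583 had 12.9 and 38.5 in DNCHD4 without and with tetracycline and 14.3 and 8.59 in DNSnf2h, a difference of -2.23 [-2.90 to -1.57]. Its parental densities of 19.6 and 24.5 gave a log2 ratio of -0.32 before and 0.05 after centring, so the site followed the parental median. Site L2 at chr18:76269801-76271715 was the widest of the 10 at 1915 bp, with 30.9 and 69.2 in DNCHD4 and 21.4 and 10.6 in DNSnf2h. DNSnf2h without tetracycline listed 2 hotspots there. The higher one was taken, 780 bp wide against 1593 bp in DNCHD4 without tetracycline. The difference at L2 was -2.09, and the parental densities there were 44.0 and 77.5. Site L3 at chr18:31499453-31500246 had 13.5 and 38.1 in DNCHD4 and 20.2 and 12.7 in DNSnf2h, also a difference of -2.09, and was listed in parental cells only with tetracycline. Site L4 at chr3:94452911-94453675 had 15.7 and 46.9 in DNCHD4 and 14.5 and 9.71 in DNSnf2h, and its parental ratio was -0.12 before and 0.26 after centring. Site L5 at chr10:63416875-63417698 had 10.6 and 28.8 in DNCHD4 and 14.9 and 8.78 in DNSnf2h, and its parental densities were 10.3 and 25.7. In 4 of these 5 sites the DNSnf2h density with tetracycline was under 11, near the start of that list.

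**Figure D2:**
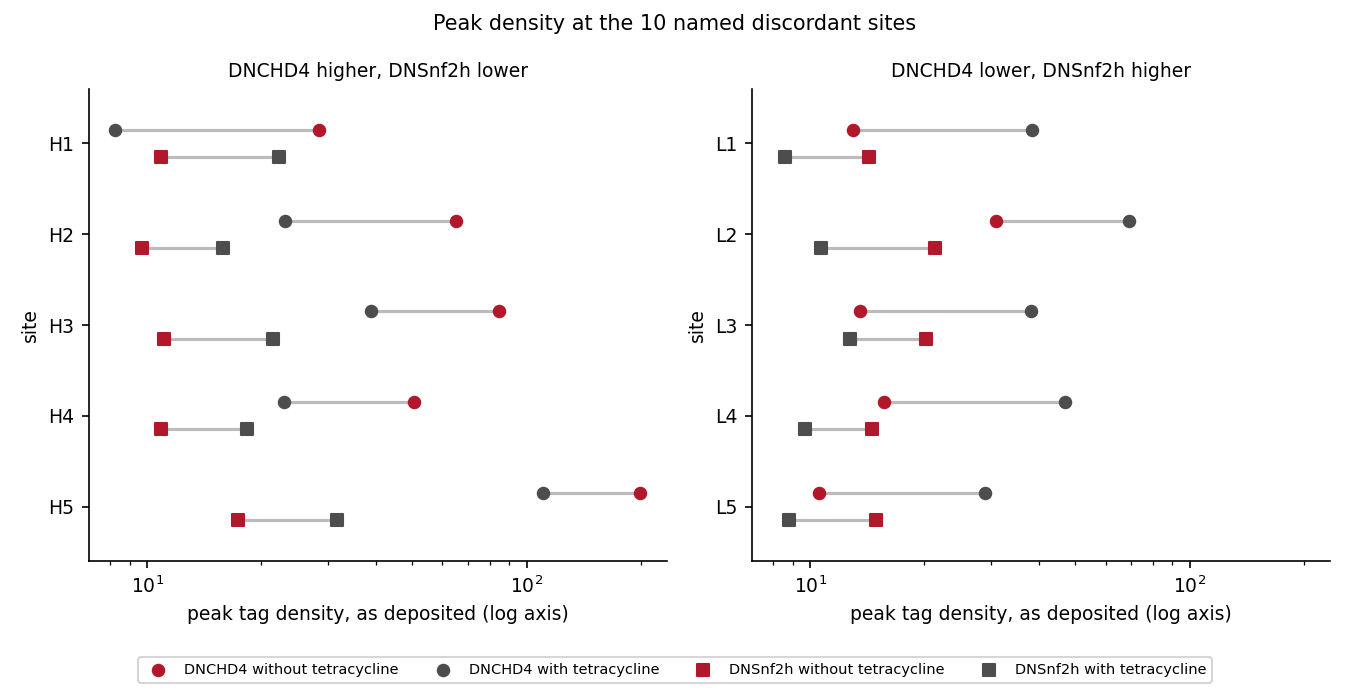
Peak density on a log axis for the 10 named discordant sites, circles for DNCHD4 and squares for DNSnf2h, red without and grey with tetracycline. In the left panel red lies right of grey in DNCHD4 and left of it in DNSnf2h, from H1 (28.4 and 8.23, against 10.9 and 22.2) to H5, and in the right panel the order is turned round.

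The start of the DNSnf2h list bears on which discordant sites could be seen. A site 1.5-fold lower in DNSnf2h must have had a density of at least 12.2 with tetracycline to remain listed without it, which held for 12534 members, or 78.9%. For DNCHD4 it held for 15876. All 43 sites higher in DNCHD4 and lower in DNSnf2h were among the 12534, as they had to be, but only 8 of the 48 of the opposite kind. The other 40, and 263 of the 565 concordant higher sites, had DNSnf2h densities with tetracycline at which a 1.5-fold fall would have left the list. The part of this in the discordant counts was not tested. With all 4 densities at least 2 times the start of their lists, 7782 sites remained, of which 8 and 5 were discordant and 176 and 731 concordant higher and lower.

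Discordant sites were weaker and narrower than the median member in parental cells. Strength, width and shape were read in parental cells with tetracycline, a library outside both ratios. Sites higher in DNCHD4 and lower in DNSnf2h had a median peak density of 41.7 (quartiles 26.5 and 65.3) and those of the opposite kind 31.9 (24.2 and 47.7), against 72.2 (40.3 and 127) over all sites. Their median widths were 718 bp and 677 bp, against 825 bp. Width rose with strength, from a median of 645 bp in the weakest quintile of parental density to 1037 bp in the strongest. Within the weakest quintile, sites higher in DNCHD4 and lower in DNSnf2h were 0.325% of the wider and 0.708% of the narrower sites. Those of the opposite kind were 0.909% and 0.837%. Whether width differed apart from strength was not tested. The densities of sites higher in DNCHD4 and lower in DNSnf2h depended on the library. Their median was 41.8 in parental cells without tetracycline, against 54.6 over all sites, a reading chosen after the data were seen. In DNCHD4 it was 74.8 without and 44.9 with tetracycline, against 69.7 and 75.5 over all sites, and in DNSnf2h 12.5 and 22.2, against 18.7 and 19.8. They thus lay above the median member in the library where each line was high, which the class rule favours. Sites of the opposite kind lay below the median member in all 4 libraries and in parental cells without tetracycline, at 22.5. In parental cells with tetracycline concordant sites stood nearer to all sites, with median densities of 73.2 for higher and 60.5 for lower sites. Their median widths there were 833 bp and 797 bp. In parental cells without tetracycline their median densities were 73.4 and 32.7, against 54.6 over all sites. Concordant lower sites thus lay further below all sites there than discordant sites higher in DNCHD4, at 41.8. Weak sites have larger counting error, and the median counting SE of the DNSnf2h ratio was 0.23 and 0.26 in the discordant kinds, against 0.21 over all sites.

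Sites changed in 1 line alone also differed in strength. Alone means under 1.5-fold in the other line, whose median change had the same sign in each of these classes. At sites higher and lower in DNCHD4 alone the median DNSnf2h change was 0.17 and -0.23. At sites higher and lower in DNSnf2h alone the median DNCHD4 change was 0.25 and -0.26. Sites higher in DNSnf2h alone were the strongest class, with a median parental density of 110 (69.4 and 159) and a width of 910 bp. Sites lower in DNCHD4 alone were the weakest of the single-line classes, with 45.3 and 736 bp. From the weakest to the strongest decile of parental density, the share higher in DNSnf2h alone was 3.68% and 12.7%, with a maximum of 16.9% in decile 8. Over the same deciles the share lower in DNCHD4 alone was 17.7% and 2.65%. At 3344 of the 15878 members a 1.5-fold fall in DNSnf2h would have left the list. These included 570 of the 1507 sites higher in DNSnf2h alone and 339 of the 1616 lower in DNCHD4 alone. The part of this in the trends with strength was not tested. The median difference of changes itself was -0.05 in the weakest and -0.11 in the strongest decile. Its 2-fold tails thinned out, with 6.33% of the weakest and 0.129% of the strongest sites past 2-fold higher and 7.82% and 0.259% past 2-fold lower. Counting error falls with strength as well, with a median SE of the DNSnf2h ratio of 0.26 in the weakest and 0.12 in the strongest decile.

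**Figure D3:**
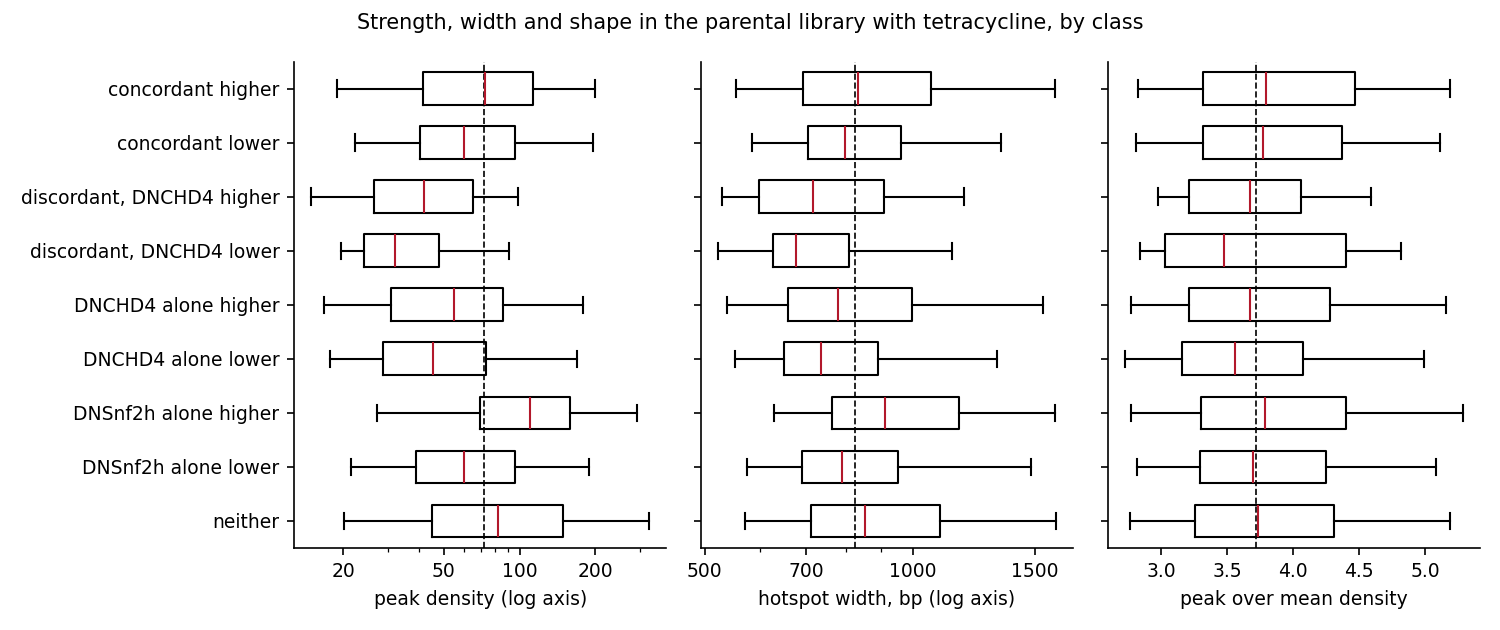
Box plots by class of peak density, hotspot width in bp (both on log axes) and shape (peak over mean density) in parental cells with tetracycline. Boxes span the quartiles, red lines are medians, whiskers reach the 5th and 95th percentiles, and the dashed line is the median of all sites. In density and width the medians of both discordant kinds lie left of that line, and those of sites higher in DNSnf2h alone lie right of it.

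Shape, the peak density over the mean density of a hotspot, separated the classes least. Its median in parental cells was 3.67 and 3.48 in the discordant kinds and 3.80 and 3.77 in concordant higher and lower sites, against 3.72 over all sites. Changes of shape were small in each class, with medians between -0.05 and 0.08 on the log2 scale in either line. Width moved with density. The log2 width change without over with tetracycline had a median of 0.04 in DNCHD4 and -0.35 in DNSnf2h at the sites higher in DNCHD4 and lower in DNSnf2h, and of -0.29 and 0.30 at those of the opposite kind. At concordant lower sites both lines narrowed, by medians of -0.25 and -0.37. How hotspot edges were set is not known here, and the same tags give both quantities, so width is not an independent readout of the change. Across all sites width and density changes had a Spearman correlation of 0.47 in DNCHD4 and 0.63 in DNSnf2h.

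The labels of the parental cells name no dominant-negative protein. The ratio of these cells is set beside both lines as the nearest measure of tetracycline removal without one. Whether these cells match the lines in carrying the transactivator is not known here. Of the members, 15189 were listed in both parental libraries, with 9.13% at least 1.5-fold higher and 9.44% lower without tetracycline after centring. Parental changes had an SD of 0.47 on the log2 scale, against 0.63 in DNCHD4 and 0.59 in DNSnf2h. The DNCHD4 change followed the parental change with a slope of 0.76, which took up 33.4% of its variance, and the DNSnf2h change with a slope of 0.45, which took up 13.0%. The difference of changes was left with a slope of 0.31 and 7.16% of its variance. Adding strength, width and shape raised the share for the difference to 7.31%.

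By decile of the parental ratio, the median difference was -0.25 at the lowest and 0.23 at the highest decile. In the lowest decile the DNCHD4 change had a median of -0.92 and the DNSnf2h change of -0.61, and in the highest these were 0.45 and 0.23. The share of sites with a 2-fold higher difference was 1.84% in the lowest and 8.49% in the highest decile, and that with a 2-fold lower difference was 12.2% and 0.658%. The median difference was higher in each decile than in the one before, and was -0.17 in decile 3 and 0.02 in decile 8.

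**Figure D4:**
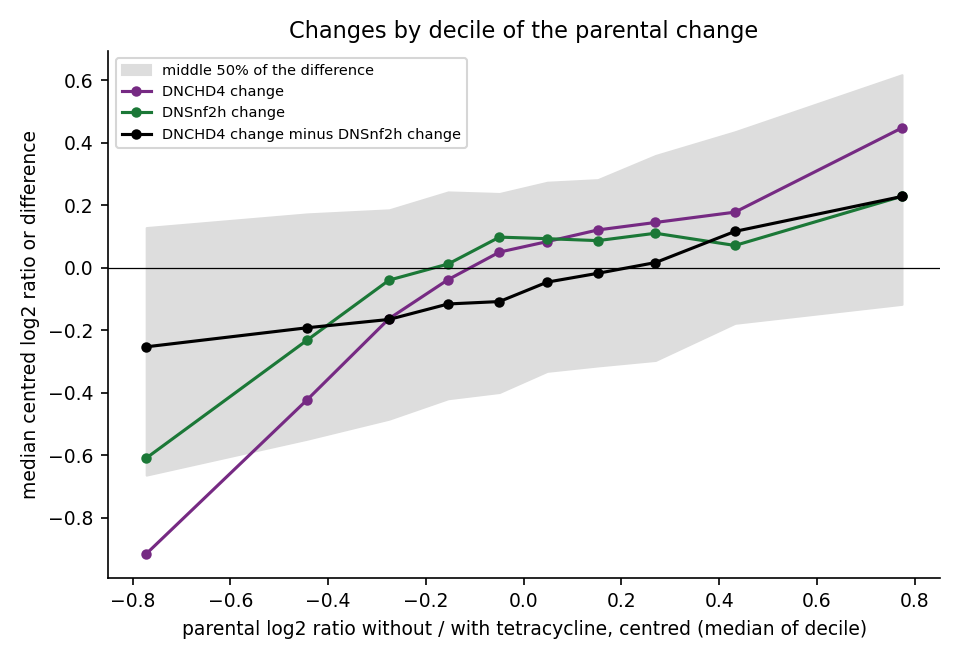
Median centred log2 ratio of DNCHD4 and of DNSnf2h, and median difference of changes (black, with its middle 50% in grey), by decile of the parental log2 ratio. All 3 lines run from lower left to upper right, and that of DNCHD4 spans the widest range, from -0.92 to 0.45.

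Concordant sites mostly moved the same way in parental cells. With a parental ratio at hand, 82.8% of the concordant higher sites lay above 0 there and 87.4% of the concordant lower sites below 0. Of the concordant higher sites with a parental ratio, 40.8% were at least 1.5-fold higher in parental cells, and of the concordant lower sites 40.4% were lower. Sites higher or lower in DNCHD4 alone had 30.1% higher and 25.2% lower in parental cells. Sites changed in DNSnf2h alone stood close to the background in the same direction, with 7.88% of the higher ones higher and 10.7% of the lower ones lower in parental cells. Parental changes in the opposite direction were rarer than the background, with 1.75% of the higher ones lower and 4.95% of the lower ones higher. Over all sites with a parental ratio 9.44% were lower and 9.13% higher. Discordant sites leaned to the side of DNCHD4. Of the 42 sites higher in DNCHD4 and lower in DNSnf2h, 33 had a parental ratio above 0, with a median of 0.39, and 12 were at least 1.5-fold higher and 0 lower. Of the 44 of the opposite kind, 31 lay below 0, with a median of -0.22, and 8 were lower and 0 higher.

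With the parental fit taken out of both lines, fewer sites were concordant lower. Of the 1558 with a parental ratio before the fit, 669 were among the 832 concordant lower sites after it. Concordant higher sites numbered 630 after it, against 542 before, with 265 in common. Discordant sites numbered 50 and 42 after it, against 42 and 44 before, with 18 and 23 in common. The fit also took out intercepts of -0.08 in DNCHD4 and -0.04 in DNSnf2h. Residuals were therefore centred on their mean, and the ratios before the fit on their median. The part of this recentring in the changed counts was not tested. The residuals of both lines still had a Spearman correlation of 0.52, against 0.58 before the fit over the same sites. At the 5819 sites whose parental ratio lay within 0.2 of 0 the correlation was 0.52 as well, with 152 and 319 concordant and 9 and 13 discordant sites. These lines and the parental cells were each measured in their own libraries, so they share no control library.

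The DNBrg1 line, in which Brg1, an ATPase of the SWI/SNF complexes, is the altered remodeler, gave another outside reading at 12733 members. Of these, 14.2% were at least 1.5-fold higher and 20.3% lower without tetracycline after centring. Among sites with a DNBrg1 ratio, 57.9% of the concordant lower sites were lower in DNBrg1. The share was 53.6% for sites lower in DNCHD4 alone and 28.3% for sites lower in DNSnf2h alone. Sites with a DNBrg1 ratio were 64.7%, 57.4% and 81.0% of these classes, in that order, against 80.2% of all members. Sites missing from either DNBrg1 list are left out. The discordant sites again leaned to DNCHD4. Their median DNBrg1 ratio was 0.39 where DNCHD4 was higher, with 23 of 32 above 0, and -0.30 where it was lower, with 18 of 27 below 0. Of the 32, 7 were at least 1.5-fold higher and 3 lower, and of the 27, 1 was higher and 8 were lower. Among the named sites with a DNBrg1 ratio, it was -0.49 at H3 and -0.66 at H5, the sign of the DNSnf2h change. At L2, L3 and L4 it was -1.27, -0.25 and -0.16, the sign of the DNCHD4 change. At the 12631 sites listed in all 8 libraries the DNSnf2h change had the lower Spearman correlations with the parental and DNBrg1 changes, 0.23 and 0.28, against 0.44 and 0.46 for DNCHD4. DNSnf2h ratios also carry more counting error, 13.0% of their variance against 3.89% in DNCHD4, and the part of this in the lower correlations was not tested.

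The extreme concordant sites show how far both lines could move together. At chr11:35761439-35762613 the density was 197 without and 20.9 with tetracycline in DNCHD4 and 52.4 and 8.03 in DNSnf2h, with 98.9 and 14.3 in parental cells. The DNSnf2h density with tetracycline, 8.03, is the lowest of its list. The difference of changes there was 0.60 [0.06 to 1.14], small beside the change of 3.32 in DNCHD4. At chr3:83543832-83544856 the density was 33.3 and 255 in DNCHD4 and 23.6 and 130 in DNSnf2h, with 27.0 and 153 in parental cells. Its difference was -0.40 [-0.76 to -0.03]. In both cases the parental cells changed in the same direction by a centred log2 ratio of 3.17 and -2.12.

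Sites changed in 1 line and within 0.20 of 0 on the log2 scale in the other numbered 436 higher and 540 lower in DNCHD4, and 535 higher and 348 lower in DNSnf2h. At chr6:37743889-37744837 the density was 165 without and 38.8 with tetracycline in DNCHD4, while DNSnf2h had 17.5 and 16.8, a difference of 2.10 [1.63 to 2.58]. Parental cells, with 82.9 and 38.4, moved with DNCHD4. At chr8:70695248-70696278 DNCHD4 had 12.7 and 78.7 and DNSnf2h had 27.0 and 30.4, a difference of -2.38 [-2.88 to -1.88]. Parental densities of 18.3 and 67.0 again moved with DNCHD4. At chr2:173484336-173485707 DNSnf2h had 27.8 and 9.52 while DNCHD4 had 83 and 92.3, a difference of -1.62 [-2.12 to -1.13]. Here the parental cells, with 56.4 and 110, had a centred ratio of -0.59 and did not share the higher DNSnf2h density. At chr15:84872550-84873538 DNSnf2h had 11.1 and 30.4 while DNCHD4 had 59.3 and 55.8, a difference of 1.62 [1.12 to 2.12]. The parental ratio of 0.82 was on the other side from DNSnf2h.

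Along the genome the changes of neighbouring sites were weakly correlated within each line, while their differences of changes had correlations near 0. Counting error was 19.7% of the variance of the difference, against 3.89% in DNCHD4 and 13.0% in DNSnf2h. The part of this in the lower correlations of the difference was not tested. For the 718 pairs of neighbouring members less than 2 kb apart, the Spearman correlation of the changes was 0.28 in DNCHD4 and 0.32 in DNSnf2h, and that of the difference was -0.01. At 2 to 5 kb, over 1177 pairs, these were 0.24, 0.19 and 0.06. At 20 to 100 kb, over 6246 pairs, they were 0.11, 0.11 and 0.01. Of the 179 pairs of neighbours that held a discordant site, 2 held a pair of them, in the same direction both times. By chromosome the median difference lay between -0.08 on chromosome 14 and -0.01 on chromosome 3. The discordant share ranged from 0.251% on chromosome 9 to 1.6%, or 7 of 437 sites, on chromosome 18. Of the 91 discordant sites 85 had exactly 1 hotspot in each list, as did 88.9% of all members, and 4 had hotspot centres more than 500 bp apart, as had 4.50% of all members.

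**Figure D5:**
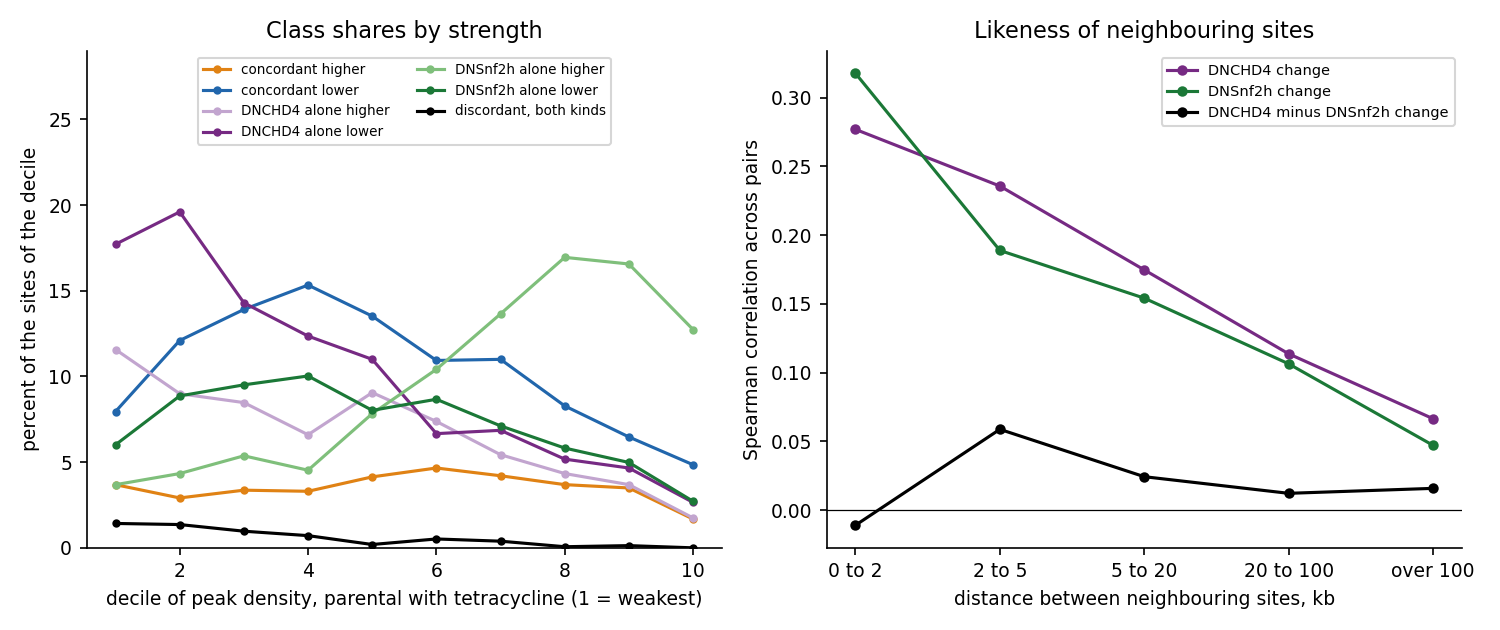
Left, percent of the sites of each decile of parental peak density (1 is the weakest) that fell in each class. Right, Spearman correlation between neighbouring members by their distance in kb. Sites higher in DNSnf2h alone were 3.68% of the weakest and 12.7% of the strongest decile, the discordant share fell to 0 in the strongest, and the black line for the difference of changes stays between -0.01 and 0.06 at all distances.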

How the data were processed

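DNase-seq hotspot lists of 8 libraries of 3134 cells were used, 1 per line and tetracycline state, with groups from the labels. CASAVA 1.6 and build mm9 are named in the submitters' processing notes. The steps that called, filtered and scaled hotspots were not given in the sources used here. For each hotspot the authors deposited a highest and a mean tag density, a signal (coverage density) scaled per library. Peak densities were whole multiples of a step of 0.179 to 0.586 per library, within 0.05 tags, for 100% of hotspots. Dividing by it gave tags, and 95% counting intervals used 1.96 SE of the log2 ratio. Such intervals leave out amplification and culture-to-culture spread, because reads carried no molecular identifiers and there were no replicates. Total depth is unknown.

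Each site took the highest peak density of its hotspots, library by library. A class needed 1.5-fold and the difference 2-fold. With 1 library per group no test was run. Named sites lay outside dense clusters (more than 15 hotspots of a list within 50 kb). They were the 5 discordant sites per direction with the largest difference less 1.96 SE, the 4 concordant sites per direction ranked by the smaller change of both lines less 1.96 SE, and 3 sites per class changed in 1 line and within 0.20 of 0 (log2) in the other. Of the concordant and single-line sites, the first per direction is printed, or a later one listed in both parental libraries. The parental covariate was a least-squares fit. The step that assigns sites to classes was tested on simulated data. These held changes well above 1.5-fold, counting error only and no start of a list, so they do not bear on changes near 1.5-fold. The members and rules were chosen with earlier results of these data known. Software was Python 3.11.15 with scipy 1.17.1, pandas 2.3.3, numpy 2.4.6 and matplotlib 3.10.9.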

Additional observations from a re-analysis of the deposited data

Results flagged for a closer look

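The 10 named discordant sites stand out because the 2 lines moved in opposite directions there. The difference, DNCHD4 change minus DNSnf2h change on the log2 scale, was 2.89 at H1, 2.29 at H2, 2.14 at H3, 1.97 at H4 and 1.79 at H5. It was -2.23 at L1, -2.09 at L2, -2.09 at L3, -2.09 at L4 and -2.14 at L5. With 1 library per group the difference was not tested at any of them, and their counting intervals do not cover the spread between cultures. The sites were chosen for the size of this difference.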

How the results depend on the processing

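Of 70 values recomputed under 10 settings (the 2 counts of differences past 2-fold, the 4 concordant and discordant counts and the share of sites with the same sign), 9 could not move: the class fold enters neither the differences nor the sign, and each site past a fold had its counting interval off 0. Of the other 61, 39 stayed within 1.5 times (counts) or within the Wilson interval of 70.4% to 71.8% (share). Medians were set to 0 again in each subset, but not for the residuals after the parental fit. At a 2-fold class rule the concordant counts were 86 higher and 465 lower, and the discordant ones 1 and 1. With all densities at least 2 times the start of their lists, the differences past 2-fold numbered 115 higher and 168 lower, concordant sites 176 and 731, discordant sites 8 and 5, and the same-sign share was 72.4%. The mean density gave 754 higher differences, 91 and 89 discordant sites and a share of 69.3%. As deposited, 27 sites were higher in DNCHD4 and lower in DNSnf2h and the share was 69.98%. With at least 50 tags in each library, 29 sites were lower in DNCHD4 and higher in DNSnf2h. After the parental fit, over 15189 sites, there were 415 lower differences and 832 concordant lower sites, with a share of 69.8%. Among sites with a parental ratio these counts were 596 and 1558 before the fit. With both counting intervals off 0 the share was 89.0%. The cause of these shifts was not tested, apart from the smaller number of sites or the stricter fold in some settings. Sites with 1 hotspot per list, sites outside dense clusters and a merge of all 8 lists gave values close to those reported for all 7 measures. No paired analysis was possible because each group has 1 library and the numbers in the titles follow the tetracycline state. Read in the geometric mean of the 4 libraries in place of parental cells, the median density of the discordant kinds was 0.27 and 0.93 lower than that of all sites on the log2 scale, against 0.79 and 1.18 in parental cells with tetracycline. A tag depth of about 100 in DNSnf2h limits small differences.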

Other observations

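On the X chromosome the median centred change was 0.14 in DNCHD4 and 0.07 in DNSnf2h, over 349 sites, and 6.02% of its sites were concordant, against 13.8% over all members. In parental cells the median there was 0.05. On chromosome 3 the discordant share was 1.28%, or 12 of 938 sites.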
